A study of Mus musculus with 111 samples.

Results

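Translation initiation factor genes were followed through mouse gastrocnemius muscle after hindlimb casting, in an Achilles tenotomy cohort, after sham surgery and in untouched animals. The members are all genes whose array symbol starts with Eif and a digit, so that the eIF4E-binding proteins and the kinases that phosphorylate eIF2 are included beside the factors themselves. There were 47 such genes among 18194 genes with a probe set that lists 1 gene, and 46 of them passed the filter on low values among the 16029 genes tested, Eif4a3 being the member that did not. The rule for members used names only, but the set was chosen with earlier results of these data known. Each gene is read from its brightest probe set out of the 133 that list a member. Eif1, Eif2s1, Eif3g, Eif3j1, Eif4g1 and Eif4ebp3 are not analysed here.

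The study set 2 ways of unloading a muscle beside each other, on 111 Affymetrix arrays from 70 male C57BL/6 mice. Cast mice were 8 weeks old, their right hindlimb was immobilised, and the left leg was the control. Cast arrays numbered 10, 7 and 9 on days 2, 7 and 14, with 9, 8 and 9 from the opposite legs. The tenotomy cohort, also 8 weeks old, was anaesthetised with ether and ketamine-xylazine and had 1 Achilles tendon cut. Its arrays numbered 5, 7 and 5 from right legs on those days, and as many from left legs. Sham mice had the tendon exposed and handled but not cut (3, 7 and 8 right legs), and 7 right legs came from naive mice that were not handled. The ages of sham and naive mice are not given in the sources used here.

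The sources conflict on the operated leg of the tenotomy cohort. Sample labels call the left legs tenotomy and the right legs control, whereas in the series' design the cut is on the right side and left legs serve as controls. Values are therefore given by side, right minus left, in both cohorts. "Right legs" of the tenotomy cohort are those labelled control and "left legs" those labelled tenotomy. A sign in this cohort gives the direction between sides and does not settle which leg was operated.

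Array signals were on 1 scale, with a trimmed mean (2% taken from each end) of 99.955 to 99.965, and 1 array of a cast leg at day 14 stood apart in its median signal. All 12 mature muscle fibre markers and all 16 macrophage markers listed passed the filter, so none was at background throughout. Relative to the naive mean, the macrophage markers averaged 2.85 on the log2 scale in right legs of the tenotomy cohort at day 2 (2.61 to 3.06 over the arrays), 1.46 at day 7 and 0.78 at day 14. In the left legs they averaged -0.32, -0.28 and -0.50. In cast legs they averaged 0.20, 0.92 and 1.32, and in their control legs 0.73, 0.65 and 0.57. Fibre markers averaged -1.09, -0.88 and -0.61 in right legs and -0.37, -0.48 and -0.35 in left legs of the tenotomy cohort. In cast legs they averaged -0.91, -0.97 and -0.90, and in their control legs -0.66, -0.78 and -0.84. The log2 ratio of 3' to 5' actin probe sets, a sign of RNA quality, was higher in the right leg in 15 of 16 tenotomy cohort pairs (mean difference 0.63, SD 0.44) and in 7 of 25 cast pairs (mean -0.17, SD 0.35). The same ratio for Gapdh was higher in the right leg in 9 of 16 tenotomy cohort pairs (mean difference 0.017, SD 0.076). In cast mice it was higher in 15 of 25 pairs (mean 0.0055, SD 0.026). The part of these shifts in the member differences below was not tested. In whole muscle, fewer cells of a type and less RNA per cell cannot be told apart.

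Initiation is the step at which the small ribosomal subunit finds the start codon of an mRNA. eIF2 brings the initiator tRNA with GTP, eIF1, eIF1A, eIF3 and eIF5 assemble on the small subunit, and eIF4E holds the mRNA cap while eIF4G bridges to the helicase eIF4A. Cells limit initiation mainly at 2 points. 4E-BPs bind eIF4E until mTORC1 phosphorylates them, and stress kinases phosphorylate eIF2, which then blocks its exchange factor eIF2B. Muscle mass depends on the balance of protein synthesis and breakdown, and low use of a muscle is known to lower its synthesis rate.

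In cast legs the members that differed from the control leg were mostly higher. They included genes of eIF2B, eIF3, eIF2 and eIF5 and the 4E-BP gene Eif4ebp1, beside others such as Eif4b, Eif4a1, Eif1a and Eif5b. The tenotomy cohort had other leading members: right legs had more Eif4a1, Eif1a, Eif2ak3 and, at day 2, Eif4ebp1 signal, and less Eif4ebp2, Eif4e3, Eif2s2 and Eif2ak1, by the brightest probe set of each. The test was limma's moderated test over 16 group means with the animal as a random block and Benjamini-Hochberg adjustment over all genes tested, and a gene is called at an adjusted p under 0.05. Differences are on the scale log2(signal + 3.982).

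At day 2 of casting 18 of 46 members were higher and 2 lower, where 24.3% of all genes tested were called (11% higher, 13.3% lower). At day 7 the counts were 11 higher and 2 lower against 8.77% of all genes (4.22% higher, 4.55% lower), and at day 14 they were 8 and 3 against 13.2% (7.17% higher, 6.04% lower). Quantile scaling gave 10 higher and 2 lower at day 14. Of the 16 macrophage markers, 11 were called lower in cast legs at day 2 and 16 higher at day 14, and their part in these counts was not tested. The median member difference was 0.13 at day 2, 0.11 at day 7 and 0.02 at day 14, beside all-gene medians of -0.03, 0.01 and 0.04.

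Between the legs of the tenotomy cohort, 9 members were higher and 11 lower at day 2, where 36.7% of all genes were called (20.8% higher, 15.9% lower). At day 7 there were 5 higher and 8 lower beside 32.9% (18.3% and 14.6%), and at day 14 there were 3 and 9 beside 23.2% (13.5% and 9.71%). With quantile scaling the splits became 14 higher and 7 lower at day 2 and 10 and 8 at day 7. On those days the balance of directions among members in this cohort therefore depended on the scaling. At day 14 that scaling gave 3 higher and 7 lower. Median member differences were -0.05, -0.02 and -0.06, beside 0.02, 0.00 and 0.02 for all genes. Taken in either direction, the shares of members called lie near those of all genes, so these totals are not a result about the members. By direction, a smaller share of members than of all genes was called higher, and a larger share lower, on each day. That difference in direction was not tested. Over both cohorts, 6 members (Eif3k, Eif4a2, Eif4g2, Eif4h, Eif5a and Eif5a2) were called in none of the 6 leg differences. The share of all genes called in none is not given here, so nothing particular to the members is read from that count.

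**Figure D1:**
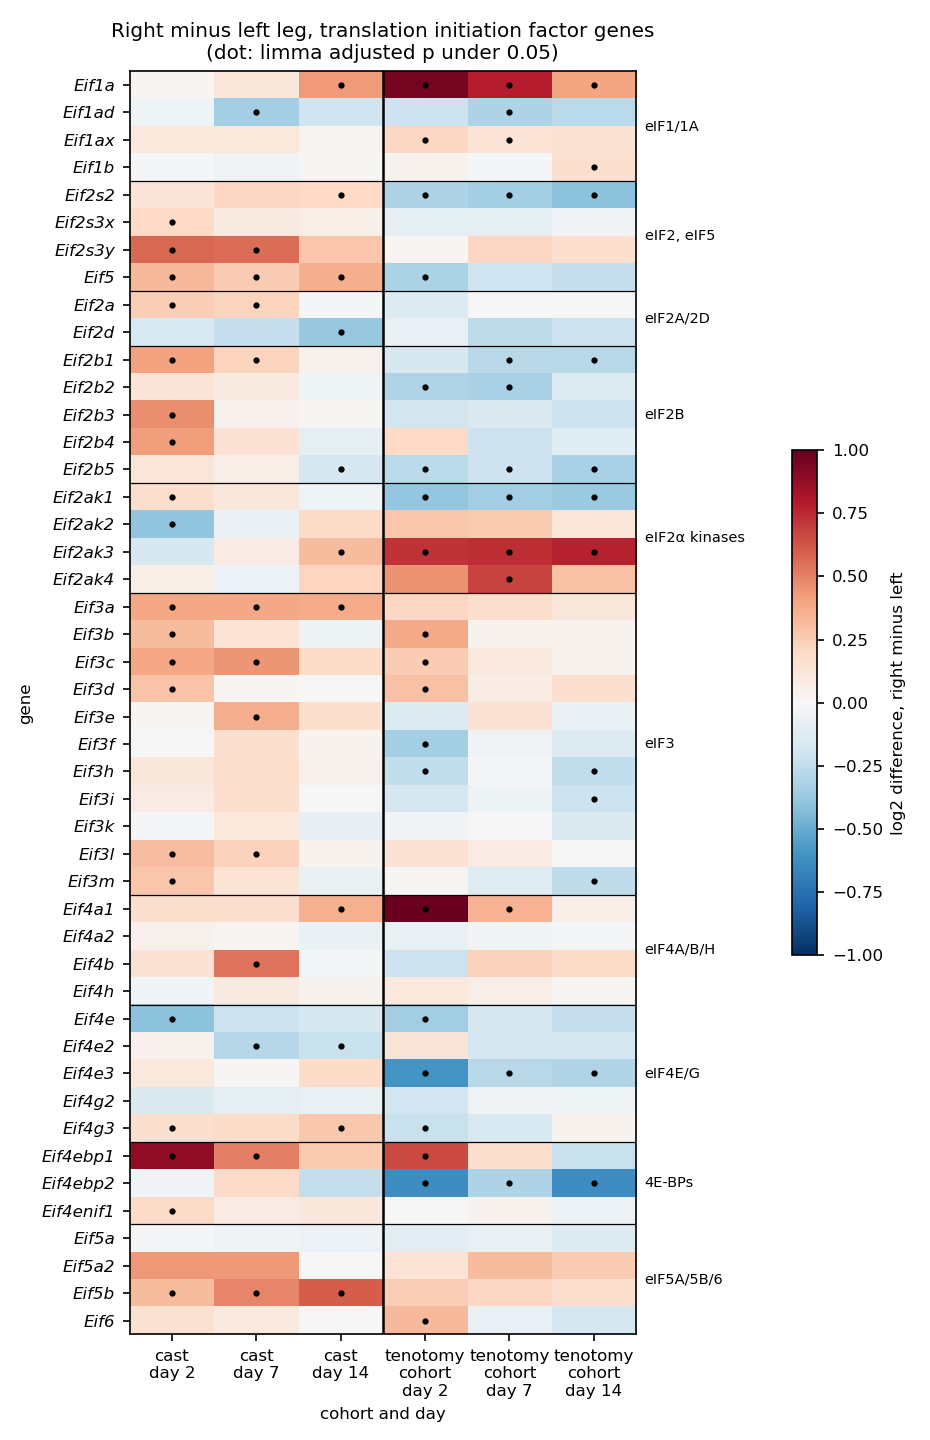
Heat map of the right minus left log2 difference for the 46 members tested (rows, by role) in the 6 leg differences (columns: cast mice and tenotomy cohort at days 2, 7 and 14), with a dot where the adjusted p is under 0.05. Most dots of the cast mice lie on higher values (18 of 20 at day 2), while those of the tenotomy cohort lie on both sides (9 higher and 11 lower at day 2).

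The eIF4E-binding proteins hold back cap-dependent initiation by occupying eIF4E. Eif4ebp1 showed the largest casting difference of any member at day 2. Its signal was 802.6 to 2138 (median 1778, n = 10) in cast legs and 681.5 to 1347 (median 829.1, n = 9) in control legs, and 465.9 to 720.2 in naive legs (median 567.6, n = 7). All but 2 cast arrays lay above every control array, and all but 1 of the control arrays were at or below 900. The log2 difference was 0.88 (SE 0.12, 1.84-fold, adjusted p = 8.00e-10), higher in 9 of 9 pairs. It was 0.50 (SE 0.13, adjusted p = 0.00556) at day 7, higher in 6 of 7 pairs, and 0.27 (SE 0.12, adjusted p = 0.132) at day 14, which is not a call. The change from day 2 to day 14 was itself -0.62 (SE 0.17, adjusted p = 0.0053).

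Eif4ebp1 signals of right legs of the tenotomy cohort at day 2 were 1514, 1566, 1599, 1632 and 1708, and those of left legs 780.4, 916, 918.5, 1117 and 1453. Every right leg lay above every left leg. The difference was 0.66 (SE 0.16, 1.58-fold, adjusted p = 3.59e-04). By day 14 the right legs read 422.4, 518.7, 537.6, 547.9 and 719.9 and the left legs 567.7, 579.5, 640.7, 668.9 and 714.3, which overlapped, with a difference of -0.22 (adjusted p = 0.351). The day 14 minus day 2 change was -0.88 (SE 0.23, adjusted p = 0.00502). Eif4ebp1 was thus higher in the right leg early in both cohorts, and its difference was smaller at day 14 than at day 2 in each.

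Eif4ebp2, another 4E-BP, went the other way in the tenotomy cohort. At day 2 its right legs read 273, 322.1, 354.1, 388.7 and 431.6 and its left legs 460.4, 495, 523.7, 601.8 and 635.6. At day 14 they read 275.7, 284.4, 295.1, 427.3 and 430.2 and 440.2, 445.8, 520, 612.2 and 619.8. The sides did not overlap on either day. Differences were -0.62 (SE 0.14, 0.651-fold, adjusted p = 1.49e-04) at day 2, -0.31 (SE 0.12, adjusted p = 0.0367) at day 7 and -0.62 (SE 0.14, 0.65-fold, adjusted p = 3.98e-04) at day 14. The day 7 call was lost with the mean over probe sets, at -0.062 (adjusted p = 0.668), without the block for animals, at -0.31 (adjusted p = 0.0525), and in a fit of the 2 groups alone, at -0.31 (adjusted p = 0.0738). The naive legs ran from 256.7 to 330.5 (median 270.2, n = 7), so all left legs at days 2 and 14 lay above the naive range and right legs partly inside it. Against naive, left legs pooled over days differed by 0.87 (SE 0.11, adjusted p = 1.12e-10). In cast mice both legs were high: cast legs at day 2 ran 313.2 to 620.9 (median 498, n = 10) and control legs 400.3 to 726.1 (median 471.8, n = 9). The cast-minus-control difference was -0.03 (adjusted p = 0.88), with control legs over all days 0.85 (SE 0.10, adjusted p = 1.25e-11) above naive. A second Eif4ebp2 probe set gave 0.02 in the tenotomy cohort at day 2 where the brightest gave -0.62. Eif4enif1, which encodes the eIF4E transporter 4E-T, rose by 0.19 (SE 0.053, adjusted p = 0.00298) at day 2 of casting and was not called elsewhere between legs.

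The gene of the cap-binding protein itself, Eif4e, was lower at day 2 in both cohorts. Its signals at day 2 were 637.4 to 1142 (median 816.6, n = 10) in cast legs and 956.8 to 1168 (median 1103, n = 9) in controls, beside 1312 to 1775 in naive legs (median 1368, n = 7). Apart from 1 cast array at 1142, all cast arrays were below all control arrays, and every array of both sides was below every naive array. The difference was -0.41 (SE 0.069, 0.751-fold, adjusted p = 7.26e-07), lower in 8 of 9 pairs. At days 7 and 14 it was -0.22 (adjusted p = 0.0646) and -0.16 (adjusted p = 0.117), which are not calls. Right legs of the tenotomy cohort at day 2 read 857.4, 929.9, 977.3, 1001 and 1106 and the left legs 1149, 1169, 1237, 1322 and 1333, here without overlap. That difference was -0.35 (SE 0.094, 0.784-fold, adjusted p = 0.00142). Relative to naive, control legs of cast mice were at -0.31 (SE 0.067, adjusted p = 1.05e-04) and left legs of the tenotomy cohort at -0.25 (SE 0.071, adjusted p = 0.00469).

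Eif4e3, a cap-binding relative of eIF4E, was lower in right legs of the tenotomy cohort on all 3 days. At day 2 right legs read 349.7, 350, 364.9, 409.7 and 416.6 and left legs 462.5, 502.8, 633.7, 640.9 and 657.2. No right leg reached the lowest left leg. Differences were -0.60 (SE 0.095, 0.66-fold, adjusted p = 8.37e-08), -0.27 (SE 0.080, adjusted p = 0.0042) and -0.30 (SE 0.096, adjusted p = 0.0122). Cast legs did not differ from their controls at day 2 beyond the spread, with 0.11 (adjusted p = 0.307), but control legs of cast mice were -0.44 (SE 0.067, adjusted p = 8.52e-08) from naive. Eif4e2 (4EHP), which binds caps without recruiting eIF4G, was -0.29 (adjusted p = 0.00994) and -0.22 (adjusted p = 0.0253) in cast legs at days 7 and 14. Eif4g3, an eIF4G scaffold, was 0.17 (adjusted p = 0.0475) and 0.27 (adjusted p = 0.00286) with casting at days 2 and 14 and -0.22 (adjusted p = 0.0474) in the tenotomy cohort at day 2. Without the block the day 2 values were 0.17 (adjusted p = 0.0664) and -0.22 (adjusted p = 0.0665), which are not calls. Eif4g2, which encodes a scaffold lacking the eIF4E site, was not called by its brightest probe set.

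**Figure D2:**
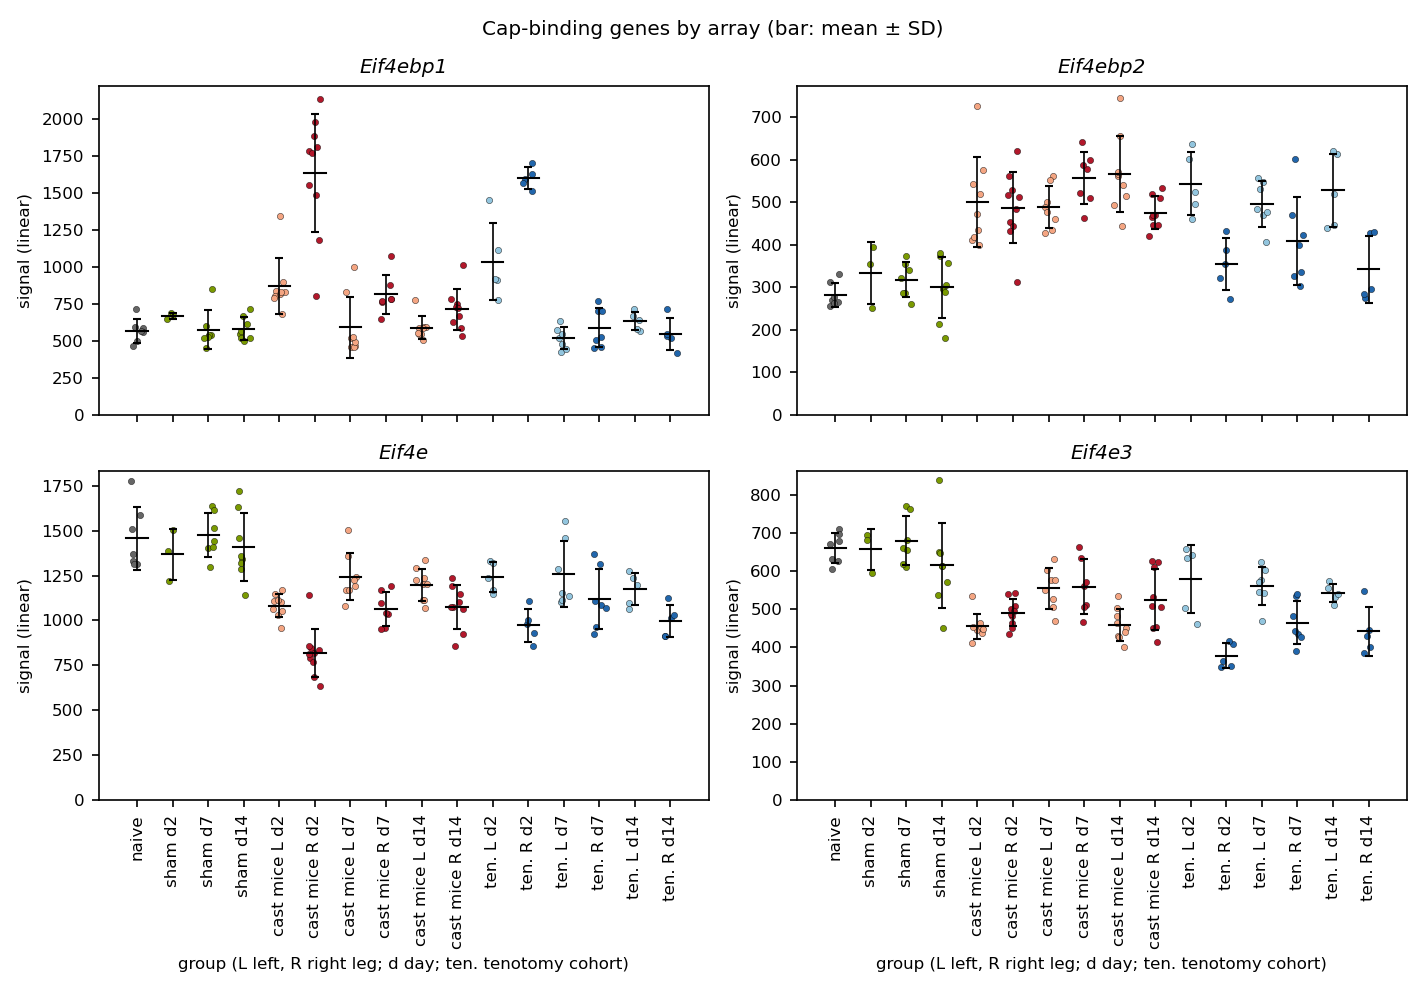
Linear array signals of Eif4ebp1, Eif4ebp2, Eif4e and Eif4e3 in all 16 groups (points: arrays; bars: mean and SD; x axis: group by leg and day). Eif4ebp1 reaches 802.6 to 2138 in cast legs at day 2 against 465.9 to 720.2 in naive legs, and Eif4e sits below its naive range of 1312 to 1775 in both legs of cast mice at day 2.

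eIF4A is the helicase that opens mRNA leaders, and eIF4B and eIF4H stimulate it. Eif4a1 had the largest leg difference of all members in the tenotomy cohort at day 2. Right legs read 1596, 1680, 1724, 1762 and 1798 and left legs 780.4, 788.4, 903.6, 907.5 and 944. The lowest right leg was far above the highest left leg, and the difference was 0.99 (SE 0.11, 1.98-fold, adjusted p = 2.75e-13). At day 7 the right legs ran 705.4 to 1437 (median 1029, n = 7) and the left legs 685.6 to 870.2 (median 790.9, n = 7), overlapping in 1 right leg. The difference was then 0.34 (SE 0.091, adjusted p = 0.00145), higher in 6 of 7 pairs. At day 14 it was 0.07 (adjusted p = 0.723), right legs reading 815, 869.5, 883.3, 887.5 and 1111 and left legs 825.4, 830.5, 859.3, 896.8 and 919.6. The decline was tested: day 7 minus day 2 was -0.64 (SE 0.14, adjusted p = 0.0016) and day 14 minus day 2 was -0.92 (SE 0.15, adjusted p = 8.23e-06).

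With casting, Eif4a1 was called at day 14 alone. The cast-minus-control difference was 0.16 (adjusted p = 0.143) at day 2 and not called at day 7. At day 14 cast legs ran 1030 to 1475 (median 1342, n = 9) and control legs 886.6 to 1146 (median 1000, n = 9), with 1 cast array inside the control range. That difference was 0.35 (SE 0.080, 1.28-fold, adjusted p = 9.14e-04), higher in 9 of 9 pairs. Eif4a2, the paralogue known to be abundant in muscle, was 0.04 (adjusted p = 0.703) at day 2 of casting and -0.07 (adjusted p = 0.51) at day 2 in the tenotomy cohort. Eif4b rose in cast legs at day 7, from 866.7 to 1554 (median 1037, n = 8) in control legs to 1186 to 1780 (median 1680, n = 7) in cast legs. The difference was 0.54 (SE 0.094, 1.45-fold, adjusted p = 1.26e-05), higher in 7 of 7 pairs, though 2 control arrays lay within the cast range. Eif4h was called in no leg difference.

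Upstream sequence is shown for Eif4a1, Eif4e and Eif5b, each a member with a large leg difference that the RefSeq promoter table for GRCm38.p6 lists. They were not picked by a rule on size and do not stand for the members. Eif4ebp1, Eif1a and Eif2ak3, with larger leg differences than Eif4e or Eif5b, are not shown. Each sequence is the 250 bases before the annotated start, read on the gene's strand. Capitals mark the E-box CACGTG, the site bound by Myc with Max, which reads the same on both strands. The windows are chr11:69672424-69672673 (minus strand) for Eif4a1, chr3:138527018-138527267 (plus strand, the one of 2 annotated starts with a match) for Eif4e and chr1:37997760-37998009 (plus strand) for Eif5b.
Eif4a1: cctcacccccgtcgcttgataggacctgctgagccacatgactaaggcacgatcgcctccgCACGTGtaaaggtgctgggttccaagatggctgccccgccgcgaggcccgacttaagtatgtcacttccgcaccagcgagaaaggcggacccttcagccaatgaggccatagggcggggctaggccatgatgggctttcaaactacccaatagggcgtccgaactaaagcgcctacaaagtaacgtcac
Eif4e: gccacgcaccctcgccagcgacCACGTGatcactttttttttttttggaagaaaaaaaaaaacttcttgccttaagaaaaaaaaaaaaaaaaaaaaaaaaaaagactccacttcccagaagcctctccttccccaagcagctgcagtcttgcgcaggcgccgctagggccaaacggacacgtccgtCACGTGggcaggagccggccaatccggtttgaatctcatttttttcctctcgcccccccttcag
Eif5b: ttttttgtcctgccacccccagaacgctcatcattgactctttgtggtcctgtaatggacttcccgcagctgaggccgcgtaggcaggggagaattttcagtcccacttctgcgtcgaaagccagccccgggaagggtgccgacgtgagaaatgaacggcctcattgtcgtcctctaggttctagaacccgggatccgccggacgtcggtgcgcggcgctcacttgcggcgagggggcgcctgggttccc
The matches begin 189 bases before the Eif4a1 start and 228 and 64 bases before the Eif4e start, and Eif5b has none in this window. E-boxes were found in 8 of the 38 members in the table (21.1%: Eif1b, Eif3f, Eif3k, Eif4a1, Eif4e, Eif4h, Eif5a and Eif5a2) and in 6.86% of all 27025 genes. The FOXO element GTAAACA, on either strand, was found in 1 of 38 members (Eif2s3y) and 3.54% of genes, and the ATF4 element TTGCATC in 0 of 38 and 2.51%. Member promoters were richer in G and C, with a median of 61.2% over 51 promoters against 52.4% over 32851. Of the members with the E-box, Eif4a1 was higher and Eif4e and Eif3f lower in the tenotomy cohort at day 2. Eif1b, Eif3k, Eif4h, Eif5a and Eif5a2 were not called there, where 36.7% of all genes were called. The Eif3f call was lost under quantile scaling, at -0.068 (adjusted p = 0.523). Nothing particular to members with the E-box is read from these calls. A match is a match of letters and not a bound site.

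The eIF2 complex delivers the initiator tRNA, and eIF5 triggers its GTP hydrolysis. Eif2s2, which encodes the beta subunit, was lower in right legs of the tenotomy cohort at day 14, and at days 2 and 7 by its brightest probe set. At day 14 right legs read 2257, 2409, 2607, 2612 and 2695 and left legs 3061, 3315, 3363, 3460 and 3573, without overlap. Differences were -0.30 (SE 0.093, adjusted p = 0.00553), -0.34 (SE 0.079, adjusted p = 2.47e-04) and -0.41 (SE 0.094, adjusted p = 4.01e-04) on the 3 days. The day 2 call was lost under quantile scaling, at -0.042 (adjusted p = 0.668), and with the mean over probe sets, at -0.15 (adjusted p = 0.15), as was that of day 7 with the mean, at -0.15 (adjusted p = 0.0949). In cast mice Eif2s2 was higher at day 14, by 0.20 (SE 0.069, adjusted p = 0.0462), or 0.20 (adjusted p = 0.0708) without the block and 0.15 (adjusted p = 0.0963) with the mean over probe sets, which are not calls. The 2 genes of the gamma subunit, X-linked Eif2s3x and Y-linked Eif2s3y, both rose at day 2 of casting. Eif2s3y signals were 206.5 to 456.7 (median 328, n = 10) in cast and 123.7 to 308 (median 215.9, n = 9) in control legs, ranges that overlapped although 9 of 9 pairs were higher. The differences were 0.57 (SE 0.16, 1.49-fold, adjusted p = 0.00488) for Eif2s3y and 0.20 (SE 0.037, adjusted p = 1.30e-05) for Eif2s3x. At day 7 Eif2s3y was 0.56 (SE 0.18, adjusted p = 0.0402), or 0.56 (adjusted p = 0.0682) without the block, with 1 cast array at 171 below all control arrays.

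Eif5 differed between the cohorts, with a tenotomy cohort minus casting value of -0.64 (SE 0.12, adjusted p = 5.55e-06) at day 2. In cast legs it was higher on all 3 days, by 0.33 (SE 0.071, adjusted p = 1.37e-04), 0.26 (SE 0.080, adjusted p = 0.0248) and 0.37 (SE 0.072, adjusted p = 1.27e-04). At day 14 the cast legs ran 1183 to 1486 (median 1384, n = 9) and the control legs 857 to 1179 (median 1118, n = 9), with no overlap. Right legs of the tenotomy cohort at day 2 read 1066, 1144, 1199, 1210 and 1306 and the left legs 1344, 1424, 1479, 1530 and 1591, so the right legs were the lower ones. That difference was -0.31 (SE 0.097, adjusted p = 0.0061). Eif2a and Eif2d encode factors that can deliver initiator tRNA without eIF2. Eif2a rose in cast legs by 0.24 (SE 0.059, adjusted p = 7.59e-04) at day 2 and 0.22 (SE 0.067, adjusted p = 0.0218) at day 7. Eif2d was lower at day 14 of casting, at -0.38 (SE 0.13, adjusted p = 0.0435), lower in 8 of 9 pairs, and the mean over its probe sets gave 0.04 instead. Without the block it was -0.38 (adjusted p = 0.0662).

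eIF2B recharges eIF2 with GTP, and it is the enzyme that phosphorylated eIF2 blocks. Of its 5 subunit genes, 3 rose at day 2 of casting, when 11% of all genes were called higher. Eif2b1 (alpha subunit) ran 372.8 to 576.9 (median 517.5, n = 10) in cast legs and 344.8 to 402.6 (median 375.2, n = 9) in control legs. Eif2b3 (gamma) ran 184.4 to 311.3 (median 254.85, n = 10) and 146.5 to 233.9 (median 179.1, n = 9), and Eif2b4 (delta) 630 to 1012 (median 776.7, n = 10) and 484.4 to 712.1 (median 588.4, n = 9). For Eif2b1 only the lowest cast array fell inside the control range, and the ranges of the other two overlapped more. Differences were 0.40 (SE 0.057, 1.32-fold, adjusted p = 1.17e-08) for Eif2b1, 0.47 (SE 0.10, 1.38-fold, adjusted p = 2.20e-04) for Eif2b3 and 0.42 (SE 0.079, 1.34-fold, adjusted p = 1.03e-05) for Eif2b4, each higher in 9 of 9 pairs. Eif2b1 remained higher at day 7 with 0.22 (SE 0.064, adjusted p = 0.0157). From day 2 to day 14 the casting difference changed by -0.52 (SE 0.11, adjusted p = 4.74e-04) for Eif2b4, -0.46 (SE 0.15, adjusted p = 0.0246) for Eif2b3 and -0.36 (SE 0.082, adjusted p = 8.98e-04) for Eif2b1. Eif2b5, the catalytic epsilon subunit, was 0.12 (adjusted p = 0.12) at day 2 and -0.17 (adjusted p = 0.0347) at day 14, the latter -0.17 (adjusted p = 0.0552) without the block.

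Subunits of eIF2B were lower in right legs of the tenotomy cohort where called: Eif2b2 and Eif2b5 at day 2, Eif2b1, Eif2b2 and Eif2b5 at day 7, and Eif2b1 and Eif2b5 at day 14. Eif2b1 at day 14 read 276.8, 285.2, 285.8, 295.8 and 340.7 in right legs and 342.4, 346.6, 366.2, 367.1 and 381.5 in left legs, without overlap. The difference was -0.28 (SE 0.079, adjusted p = 0.00482). Eif2b5 on that day read 363.8, 366.1, 367.5, 374.3 and 413.8 and 403, 448.6, 481.8, 483.2 and 568.8, overlapping in 1 right leg, with -0.32 (SE 0.077, adjusted p = 6.77e-04), or -0.44 (adjusted p = 0.246) with the mean over probe sets. With the mean over probe sets, Eif2b5 was 0.03 in cast mice at day 14 and 0.0047 in the tenotomy cohort at day 7, so its sign on those days depended on the probe set. The cohorts' leg differences for Eif2b1 differed by -0.56 (SE 0.097, adjusted p = 9.50e-07) at day 2.

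The kinases that phosphorylate eIF2 each answer their own stress: Eif2ak1 (HRI, heme), Eif2ak2 (PKR, double-stranded RNA), Eif2ak3 (PERK, unfolded proteins in the ER) and Eif2ak4 (GCN2, amino acids). Eif2ak3 was higher in right legs of the tenotomy cohort on all 3 days. At day 2 right legs read 90.87, 101.3, 106.3, 107.6 and 116.7 and left legs 49.01, 50.13, 64.99, 65.14 and 84.49, and at day 14 79.6, 93.21, 101.1, 102.3 and 119.2 and 45.81, 54.92, 56.73, 59.24 and 65.19. The sides did not overlap on either day, and most left legs lay within the naive range of 43.9 to 73.83 (median 53.25, n = 7). Differences were 0.72 (SE 0.15, 1.65-fold, adjusted p = 4.16e-05), 0.73 (SE 0.13, 1.66-fold, adjusted p = 1.44e-06) and 0.77 (SE 0.15, 1.7-fold, adjusted p = 4.87e-05), the right leg being higher in all 16 pairs. In cast mice the gene was -0.16 (adjusted p = 0.328) at day 2 and 0.32 (SE 0.11, adjusted p = 0.0462) at day 14, which a fixed block for animals left at 0.32 (adjusted p = 0.0829). A dim Eif2ak3 probe set gave -1.31 in the tenotomy cohort at day 2, and with the mean over all its probe sets the differences became -0.29 at day 2, -0.04 at day 7 and, in cast mice at day 14, -0.08.

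Eif2ak1 differed in the opposite direction to Eif2ak3. Right legs of the tenotomy cohort at day 2 read 198.9, 225.4, 239.8, 252.8 and 261.5 and left legs 278.4, 281.5, 293, 325.1 and 372.4, and at day 14 223.5, 239.5, 240.8, 245.5 and 257 and 294.3, 296.2, 316.8, 320.4 and 345.7. Right legs lay below all left legs on both days and mostly inside the naive range of 199.3 to 272.7 (median 237.6, n = 7). Differences were -0.39 (SE 0.077, adjusted p = 1.33e-05), -0.35 (SE 0.065, adjusted p = 5.32e-06) and -0.37 (SE 0.077, adjusted p = 8.97e-05) with the brightest probe set. With the mean over probe sets all 3 calls were lost, at -0.31 (adjusted p = 0.0548), -0.13 (adjusted p = 0.416) and -0.12 (adjusted p = 0.607). In cast legs Eif2ak1 was 0.18 (SE 0.056, adjusted p = 0.0117) at day 2, and 0.24 (adjusted p = 0.0507) with that mean. Eif2ak4 is a dim gene here, and its call in the tenotomy cohort was at day 7: 21.15 to 39.56 (median 33.29, n = 7) in right and 7.412 to 31.33 (median 18.36, n = 7) in left legs. The ranges overlapped, and the difference was 0.67 (SE 0.19, adjusted p = 0.00373), higher in 6 of 7 pairs, or 0.39 (adjusted p = 0.111) with the mean over probe sets. Eif2ak2, also dim, was lower in cast legs at day 2, with 12.2 to 27.46 (median 19.62, n = 10) against 18.91 to 36.34 (median 25.92, n = 9). Those ranges overlapped too, with a difference of -0.39 (SE 0.12, adjusted p = 0.0108), lower in 7 of 9 pairs.

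eIF1 and eIF1A keep the scanning ribosome open until the start codon is met. Eif1a also differed widely between the sides of the tenotomy cohort. At day 2 right legs read 102.5, 130.1, 134.2, 145.5 and 156.1 and left legs 60.63, 62.46, 62.63, 68.21 and 79.98. At day 7 right legs ran 72.74 to 141.7 (median 104.1, n = 7) and left legs 49.52 to 68.76 (median 62.21, n = 7). There was no overlap on either day. Differences were 0.95 (SE 0.12, 1.94-fold, adjusted p = 1.10e-10), 0.78 (SE 0.10, 1.72-fold, adjusted p = 4.41e-10) and, at day 14, 0.39 (SE 0.12, adjusted p = 0.0117). The decline from day 2 to day 14 was -0.56 (SE 0.17, adjusted p = 0.0259). With a fixed block for animals neither of these last values was a call, at 0.38 (adjusted p = 0.0822) and -0.58 (adjusted p = 0.0818). In cast mice Eif1a was 0.02 (adjusted p = 0.929) at day 2, but at day 14 cast legs ran 74.93 to 116.4 (median 90.45, n = 9) and control legs 54.76 to 74.54 (median 68.55, n = 9), again without overlap. That difference was 0.43 (SE 0.091, 1.34-fold, adjusted p = 3.80e-04).

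The X-linked Eif1ax showed 0.21 (SE 0.063, adjusted p = 0.00538) at day 2 and 0.13 (SE 0.053, adjusted p = 0.042) at day 7 in the tenotomy cohort with its brightest probe set, and -0.19 and -0.17 with the mean over its probe sets, so its direction rests on the probe set. Eif1ad was lower in the right leg at day 7 in both cohorts, at -0.34 (SE 0.10, adjusted p = 0.0226) with casting and -0.31 (SE 0.11, adjusted p = 0.0182) in the tenotomy cohort. The casting call was lost with a fixed block for animals, at -0.32 (adjusted p = 0.0989), and with the mean over probe sets, at -0.19 (adjusted p = 0.0773). The other was lost with array weights, at -0.25 (adjusted p = 0.0778), and in a fit of the 2 groups alone, at -0.31 (adjusted p = 0.178). Eif1b was called once, at 0.16 (adjusted p = 0.0488) in the tenotomy cohort at day 14, and not with a fixed block at 0.18 (adjusted p = 0.0816) or without a block at 0.16 (adjusted p = 0.0668).

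**Figure D3:**
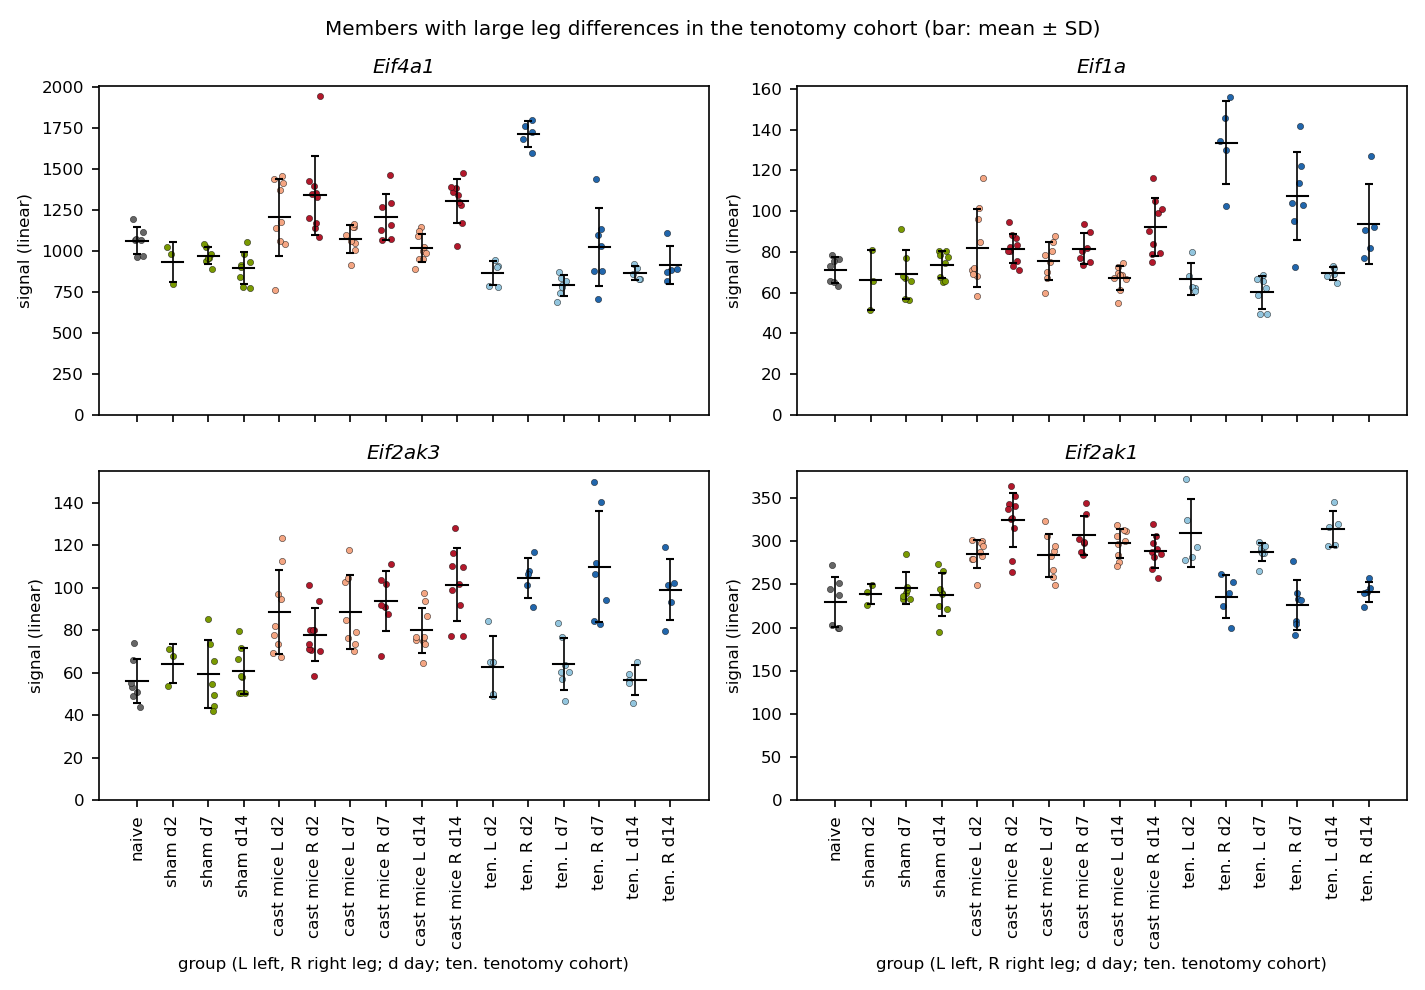
Linear array signals of Eif4a1, Eif1a, Eif2ak3 and Eif2ak1 in all 16 groups (points: arrays; bars: mean and SD; x axis: group by leg and day). Right legs of the tenotomy cohort at day 2 lie at 1596 to 1798 for Eif4a1 against 780.4 to 944 in left legs, while for Eif2ak1 they lie at 198.9 to 261.5 against 278.4 to 372.4.

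eIF3 is the large scaffold on the small subunit, and 11 of its subunit genes were tested. At day 2 of casting 6 were higher and 0 lower, beside 11% of all genes called higher and 13.3% lower. At day 7 the counts were 4 and 0, beside 4.22% and 4.55%. At day 14 they were 1 and 0, beside 7.17% and 6.04%, a share near that of all genes. Eif3a, the largest subunit, was called on all 3 days. Its signals were 1066 to 1802 (median 1708, n = 10) in cast and 1028 to 1405 (median 1223, n = 9) in control legs at day 2, where 1 cast array at 1066 lay among the controls. They were 1335 to 1679 (median 1425, n = 7) and 999.5 to 1347 (median 1113, n = 8) at day 7, with 1 control array above the lowest cast array. The differences were 0.39 (SE 0.075, adjusted p = 1.55e-05), 0.39 (SE 0.084, adjusted p = 6.07e-04) and 0.37 (SE 0.076, adjusted p = 2.38e-04).

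Eif3c, another core subunit, ran 1383 to 2076 (median 1703, n = 7) in cast and 1178 to 1398 (median 1276, n = 8) in control legs at day 7. Only the lowest cast array reached the control range. Its differences were 0.39 (SE 0.067, adjusted p = 1.74e-06) at day 2 and 0.44 (SE 0.076, adjusted p = 9.27e-06) at day 7. The other subunits called at day 2 were Eif3b with 0.32 (adjusted p = 1.20e-06), Eif3d with 0.28 (adjusted p = 5.75e-05), Eif3l with 0.31 (adjusted p = 1.86e-07) and Eif3m with 0.28 (adjusted p = 2.86e-05). With the mean over probe sets neither Eif3l, at 0.25 (adjusted p = 0.261), nor Eif3m, at 0.22 (adjusted p = 0.236), was called. At day 7 Eif3e with 0.36 (adjusted p = 4.38e-04) and Eif3l with 0.23 (adjusted p = 0.00189) were called beside Eif3a and Eif3c, and the mean over probe sets gave 0.041 (adjusted p = 0.95) for Eif3l. For Eif3b, Eif3d, Eif3l and Eif3m the day 14 difference was lower than the day 2 difference, with changes from -0.37 (Eif3b) to -0.27 (Eif3l). With the mean over probe sets the changes of Eif3l and Eif3m were 0.09 and 0.02.

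The tenotomy cohort had eIF3 subunits called in both directions. At day 2 Eif3b, Eif3c and Eif3d were higher in right legs, and Eif3f and Eif3h lower. Eif3b read 726.1, 795.8, 803.3, 832.5 and 949.8 in right and 572.8, 588.8, 595.5, 668.1 and 730.7 in left legs, which overlapped by 1 array of each side. The difference was 0.38 (SE 0.074, adjusted p = 9.75e-06), and 0.29 (adjusted p = 0.00182) for Eif3d and 0.26 (adjusted p = 0.0202) for Eif3c. Eif3f was -0.34 (adjusted p = 0.0044), which became -0.07 under quantile scaling, and Eif3h -0.25 (adjusted p = 0.00984), which became -0.12 (adjusted p = 0.152), neither being then a call. None of the 11 was called at day 7, and at day 14 Eif3h, Eif3i and Eif3m were lower, at -0.25 (adjusted p = 0.0179), -0.21 (adjusted p = 0.03) and -0.25 (adjusted p = 0.00904). None of the 3 kept its call throughout. Quantile scaling gave -0.15 (adjusted p = 0.0909) for Eif3h and -0.049 (adjusted p = 0.6) for Eif3i, the mean over probe sets gave -0.077 (adjusted p = 0.558) for Eif3i, and a fixed block for animals gave -0.25 (adjusted p = 0.0654) for Eif3m. These counts can be read against 36.7%, 32.9% and 23.2% of all genes called on the 3 days.

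The late factors join the subunits or act on elongation. Eif5b, the GTPase that joins the ribosomal subunits, was higher in cast legs on all 3 days and had the largest casting difference of any member at day 14. Its signals at day 14 were 281.5 to 564.9 (median 429.9, n = 9) in cast and 193.3 to 385.6 (median 318.4, n = 9) in control legs. The ranges overlapped in a few arrays of each side, and the difference was 0.60 (SE 0.095, 1.52-fold, adjusted p = 1.51e-06), higher in 8 of 9 pairs. At days 2 and 7 it was 0.31 (SE 0.092, adjusted p = 0.00625) and 0.49 (SE 0.10, adjusted p = 4.63e-04). Eif5b was not called in the tenotomy cohort. Eif6, which holds back subunit joining, was higher in right legs of that cohort at day 2. Right legs read 471.2, 480.8, 483.2, 531.7 and 573 and left legs 358.4, 378.2, 395.2, 410.1 and 494.1, overlapping through 1 left leg. The difference was 0.32 (SE 0.085, adjusted p = 0.00122), and it changed from day 2 by -0.40 (SE 0.11, adjusted p = 0.0194) at day 7 and by -0.50 (SE 0.12, adjusted p = 0.00284) at day 14. Eif5a, which assists peptide bond formation, was -0.02 (adjusted p = 0.918) and -0.11 (adjusted p = 0.459) at day 2 in the 2 cohorts, and its dim paralogue Eif5a2 was not called between legs.

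The difference between the cohorts was tested directly as the tenotomy cohort's leg difference minus the casting one. At day 2 it was called for 21 members, 4 higher and 17 lower (background: 34.1% of all genes, 19.8% higher and 14.3% lower). The day 7 counts were 3 and 12 (18.8% of all genes, 11% higher and 7.8% lower), and those of day 14 were 0 and 5 (8.14% of all genes, 5.16% higher and 2.98% lower). The largest at day 2 were Eif1a with 0.94 (SE 0.15, adjusted p = 1.66e-07), Eif2ak3 with 0.89 (SE 0.19, adjusted p = 5.76e-05), Eif4a1 with 0.83 (SE 0.13, adjusted p = 1.73e-07) and Eif4e3 with -0.71 (SE 0.12, adjusted p = 3.96e-07). For Eif2ak3 the mean over probe sets gave -0.17. At day 14 the calls were Eif2s2 with -0.61 (SE 0.12, adjusted p = 1.08e-04), Eif5 with -0.59 (SE 0.12, adjusted p = 3.22e-04), Eif4e3 with -0.49 (SE 0.12, adjusted p = 0.00304), Eif2ak1 with -0.33 (SE 0.096, adjusted p = 0.0176) and Eif2b1 with -0.32 (SE 0.098, adjusted p = 0.0239). With a fixed block for animals the calls of Eif2ak1 and Eif2b1 were lost, at -0.30 (adjusted p = 0.067) and -0.31 (adjusted p = 0.0617). If the tenotomy cohort is instead turned to follow its sample labels, left minus right, the day 2 counts become 5 higher and 15 lower, those of day 7 become 5 and 12, and those of day 14 become 8 and 6.

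Calls in the 2 cohorts, which share no arrays, can be set side by side. At day 2, 8 members were called in both, 40% of the 20 called in each: 5 went the same way (Eif3b, Eif3c, Eif3d and Eif4ebp1 higher, Eif4e lower) and 3 in opposite ways (Eif2ak1, Eif4g3 and Eif5). That is 10.9% and 6.52% of the members tested, beside 6.39% and 6.21% of all genes. Of all genes called, 51.9% of those in cast mice and 34.3% of those in the tenotomy cohort were called in the other. At day 7, 1 member was called the same way (Eif1ad) and 1 in opposite ways (Eif2b1), 2.17% each, beside 3.75% and 0.73% of all genes. At day 14, 3 were called the same way (Eif1a and Eif2ak3 higher, Eif2b5 lower) and 1 in opposite ways (Eif2s2), 6.52% and 2.17% beside 5.85% and 0.299%. These shares rest on 1 to 5 members each, and nothing particular to the members is read from them. The same-way sets change meaning if the cohort's labelled sides are used, since every tenotomy sign then turns.

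**Figure D4:**
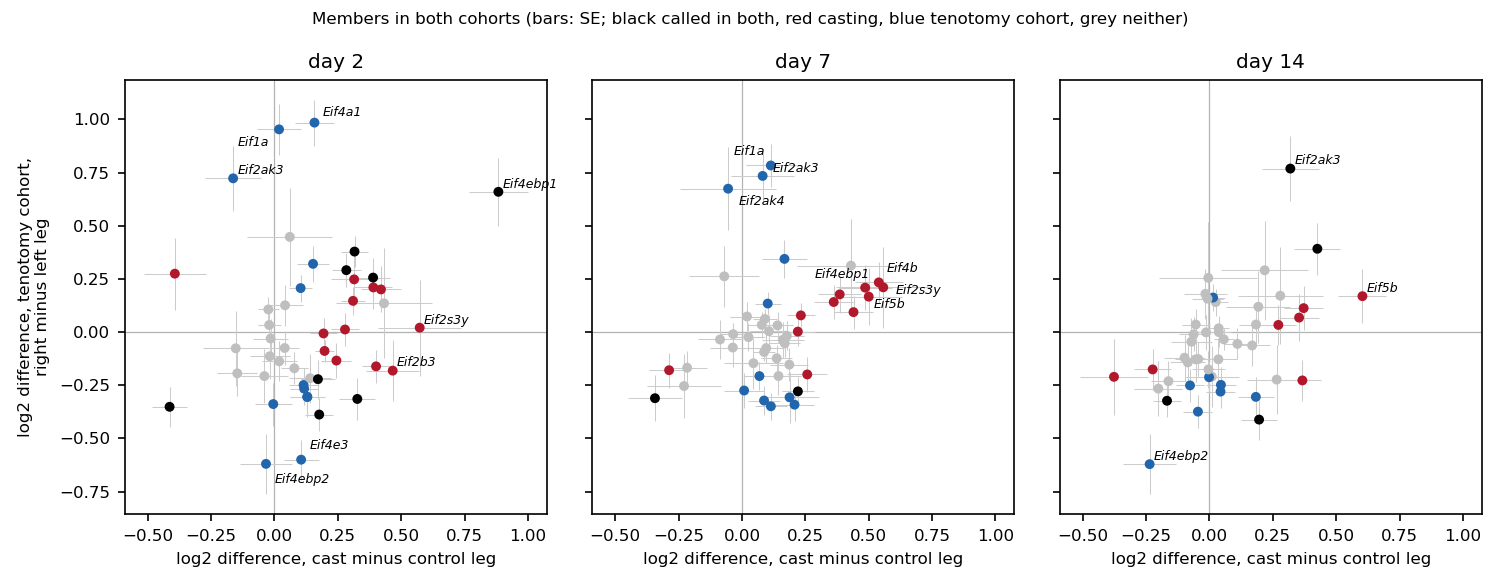
Leg differences of the 46 members in cast mice (x axis, cast minus control, log2) against the tenotomy cohort (y axis, right minus left, log2) at days 2, 7 and 14, with SE bars and colours for calls in both, one or neither cohort. At day 2 Eif4a1 and Eif1a lie high on the y axis (0.99 and 0.95) and near the centre of the x axis (0.16 and 0.02), and Eif4ebp1 is the point that is high on both.

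Over time, casting differences at day 14 minus day 2 were called for 3 members higher and 11 lower (background: 14.3% of all genes, 8.24% higher and 6.03% lower). The 3 with a higher difference at day 14 were Eif2ak2 with 0.59 (SE 0.18, adjusted p = 0.0137), Eif2ak3 with 0.48 (SE 0.16, adjusted p = 0.0262) and Eif1a with 0.41 (SE 0.13, adjusted p = 0.0178). At day 7 minus day 2 there was 1 call, Eif3e at 0.34 (SE 0.10, adjusted p = 0.0357), beside 4.14% of all genes, 2% higher and 2.14% lower. With a fixed block for animals Eif3e was 0.33 (adjusted p = 0.055) and the 1 call was of another member, and without the block it was 0.34 (adjusted p = 0.0566). The tenotomy cohort had 0 higher and 3 lower at day 7 minus day 2 (background: 4.6% of all genes, 1.35% higher and 3.25% lower), namely Eif4a1, Eif6 and Eif3b. Eif6 was -0.40 (adjusted p = 0.0514) with a fixed block. It had 0 and 5 at day 14 minus day 2 (8.15% of all genes, 2.86% higher and 5.28% lower), these with Eif4ebp1 and Eif1a. The cohorts were not tested against each other in these changes.

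Some of the calls named here ended when 1 array was left out, in comparisons where each array of a group of 5 or fewer, the array that stood apart in its median (cast day 14 array 6), or an array chosen after its values were seen, was left out alone. Arrays carry the replicate number of their labels. For casting at day 2, Eif4g3 without control day 2 array 2 was 0.16 (adjusted p = 0.0884). For casting at day 14, Eif2ak3 without cast day 14 array 6 was 0.29 (adjusted p = 0.0894). Eif2s2 without cast day 14 array 6 was 0.19 (adjusted p = 0.0741). For the tenotomy cohort at day 2, Eif2s2 without right day 2 array 5 was -0.22 (adjusted p = 0.0693). Eif3c without right day 2 array 1 and left day 2 arrays 1 and 5 was 0.21 to 0.22 (adjusted p from 0.0715 to 0.0917). Eif3h without right day 2 array 5 and left day 2 array 3 was -0.20 to -0.19 (adjusted p from 0.0591 to 0.0774). Eif4g3 without right day 2 arrays 2, 3 and 5 and left day 2 arrays 2, 3, 4 and 5 was -0.24 to -0.17 (adjusted p from 0.0508 to 0.194). For the tenotomy cohort at day 14, Eif1a without right day 14 array 3 was 0.28 (adjusted p = 0.127). Eif1b without right day 14 arrays 1, 2, 3 and 4 and left day 14 arrays 1, 3, 4 and 5 was 0.14 to 0.17 (adjusted p from 0.0509 to 0.151). Eif3h without right day 14 array 3 and left day 14 array 5 was -0.23 to -0.22 (adjusted p from 0.057 to 0.0651). Eif3i without right day 14 arrays 1, 3 and 4 and left day 14 arrays 2 and 5 was -0.21 to -0.17 (adjusted p from 0.0517 to 0.12). Eif4e3 without right day 14 array 3 was -0.26 (adjusted p = 0.0646). For the cohort difference at day 14, Eif2ak1 without right day 14 array 3 and left day 14 array 4 was -0.30 (adjusted p from 0.051 to 0.0556). Eif2b1 without right day 14 arrays 3 and 4 and left day 14 array 1 was -0.31 to -0.30 (adjusted p from 0.0544 to 0.0569). For the casting change from day 2 to day 7, Eif3e without control day 2 arrays 2 and 6 was 0.32 to 0.33 (adjusted p from 0.0509 to 0.0712). For the casting change from day 2 to day 14, Eif1a without control day 2 array 6 was 0.34 (adjusted p = 0.0521). Eif2ak3 without control day 2 array 6 was 0.44 (adjusted p = 0.054). For the tenotomy cohort change from day 2 to day 7, Eif3b without right day 2 array 1 and left day 2 array 5 was -0.32 to -0.30 (adjusted p from 0.0514 to 0.0741). Eif6 without right day 2 array 1 and left day 2 array 2 was -0.36 (adjusted p from 0.0595 to 0.0628). For the tenotomy cohort change from day 2 to day 14, Eif1a without right day 14 arrays 1 and 2 and right day 2 arrays 3 and 5 was -0.53 to -0.50 (adjusted p from 0.0525 to 0.0733). Eif3b without right day 14 array 2, right day 2 array 1, left day 14 arrays 2 and 5 and left day 2 arrays 2 and 5 was -0.32 to -0.29 (adjusted p from 0.05 to 0.0803).

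Other calls named here ended under 1 or more of the settings that apply to every comparison, beside the losses given with the genes above. For casting at day 2, Eif2s3y with the mean over probe sets was 0.35 (adjusted p = 0.0784). Eif4g3 with the mean over probe sets, quantile scaling, only the groups compared or no filter was 0.16 to 0.20 (adjusted p from 0.055 to 0.161). For casting at day 7, Eif2a with the mean over probe sets or only the groups compared was 0.22 to 0.27 (adjusted p from 0.0909 to 0.188). Eif2b1 with only the groups compared was 0.22 (adjusted p = 0.0738). Eif2s3y with the mean over probe sets was 0.48 (adjusted p = 0.053). Eif4ebp1 with the mean over probe sets was 0.33 (adjusted p = 0.0611). For casting at day 14, Eif2ak3 with quantile scaling, no block or no filter was 0.28 to 0.32 (adjusted p from 0.0545 to 0.0758). Eif2b5 with quantile scaling or only the groups compared was -0.17 to -0.15 (adjusted p from 0.0654 to 0.0984). Eif2d with only the groups compared or no filter was -0.38 (adjusted p from 0.0517 to 0.099). Eif2s2 with no filter was 0.20 (adjusted p = 0.0554). Eif4e2 with the mean over probe sets was -0.067 (adjusted p = 0.535). Eif4g3 with the mean over probe sets was 0.25 (adjusted p = 0.107). For the legs of the tenotomy cohort at day 2, Eif2b2 with the mean over probe sets was -0.29 (adjusted p = 0.0679). Eif2b5 with the mean over probe sets was -0.45 (adjusted p = 0.175). Eif3f with quantile scaling was -0.068 (adjusted p = 0.523). Eif4g3 with the mean over probe sets, quantile scaling, only the groups compared, array weights or no filter was -0.27 to -0.093 (adjusted p from 0.0537 to 0.473). Eif5 with quantile scaling was -0.18 (adjusted p = 0.127). For the legs of the tenotomy cohort at day 7, Eif1ax with a fixed block, no block, only the groups compared or array weights was 0.13 (adjusted p from 0.0534 to 0.222). Eif2b2 with the mean over probe sets was -0.26 (adjusted p = 0.0548). Eif2b5 with only the groups compared was -0.21 (adjusted p = 0.0637). For the legs of the tenotomy cohort at day 14, Eif1a with quantile scaling was 0.28 (adjusted p = 0.0775). Eif1b with the mean over probe sets, only the groups compared or no filter was 0.16 (adjusted p from 0.0523 to 0.0991). For the cohort difference at day 14, Eif2ak1 with the mean over probe sets was -0.083 (adjusted p = 0.837). Eif4e3 with the mean over probe sets was -0.30 (adjusted p = 0.073). For the casting change to day 7, Eif3e with the mean over probe sets was 0.25 (adjusted p = 0.14). For the casting change to day 14, Eif1a with quantile scaling was 0.32 (adjusted p = 0.068). Eif2ak2 with the mean over probe sets or quantile scaling was 0.35 to 0.46 (adjusted p from 0.0561 to 0.0986). Eif2ak3 with the mean over probe sets, quantile scaling or a fixed block was 0.049 to 0.47 (adjusted p from 0.068 to 0.918). For the change in the tenotomy cohort to day 7, Eif3b with only the groups compared was -0.35 (adjusted p = 0.0864). Eif6 with the mean over probe sets or only the groups compared was -0.40 to -0.39 (adjusted p from 0.0649 to 0.447). For the change in the tenotomy cohort to day 14, Eif3b with only the groups compared was -0.35 (adjusted p = 0.11).

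Few members differed between sham and naive legs. At day 2, 0 of 46 members were called, as were 0% of all genes, with 2 members at an unadjusted p under 0.05. At day 7, 0 members were called beside 0.63% of all genes, 0.25% higher and 0.381% lower, with 3 at an unadjusted p under 0.05. At day 14, 2 were higher and 0 lower beside 2.26% of all genes, 1.02% higher and 1.25% lower: Eif3k with 0.35 (SE 0.080, adjusted p = 0.00468) and Eif4b with 0.35 (SE 0.099, adjusted p = 0.0317). Fitted on the groups compared alone, they were 0.35 (adjusted p = 0.171) and 0.35 (adjusted p = 0.055), which are not calls. Eif3k ran 660.3 to 1290 (median 789.55, n = 8) in those sham legs and 589.9 to 727.8 (median 666.9, n = 7) in naive legs. Its sham arrays spread widely, with 4 inside the naive range and 4 above it.

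Right legs of the tenotomy cohort differed from sham right legs in 10 members higher and 13 lower at day 2 (background: 35% of all genes, 19.6% higher and 15.5% lower). The counts were 9 and 19 at day 7 (41.2% of all genes, 23.5% higher and 17.7% lower) and 8 and 18 at day 14 (35.9% of all genes, 20.6% higher and 15.3% lower). Quantile scaling gave 14 and 11 at day 2 and 13 and 15 at day 7. At day 14 that scaling moved the median of all genes by -0.10. Against sham, Eif4ebp1 was 1.25 (SE 0.19, adjusted p = 5.73e-08), Eif1a 0.98 (SE 0.15, adjusted p = 2.72e-08) and Eif4a1 0.88 (SE 0.13, adjusted p = 2.10e-08) at day 2. Eif2ak4 was 1.31 (SE 0.20, adjusted p = 5.83e-08) at day 7 and 1.37 (SE 0.22, adjusted p = 1.32e-07) at day 14, where sham signals at day 7 were only 3.156 to 14.87 (median 10.77, n = 7). Left legs of the cohort differed from sham in 6 higher and 5 lower at day 2 (9.99% of all genes, 4.34% higher and 5.66% lower), 6 and 17 at day 7 (19.1% of all genes, 9.7% higher and 9.45% lower) and 7 and 12 at day 14 (20.7% of all genes, 10% higher and 10.7% lower). Among the members called in left legs, Eif4ebp2 was 0.71 (SE 0.17, adjusted p = 0.00229), 0.64 (SE 0.13, adjusted p = 5.21e-05) and 0.83 (SE 0.13, adjusted p = 8.74e-07) at days 2, 7 and 14. The day 7 call of Eif4ebp2 was lost with the mean over probe sets, at 0.26 (adjusted p = 0.0517), and that of day 2 without sham day 2 array 2, at 0.53 (adjusted p = 0.0976). Eif2ak4 was 1.08 (SE 0.22, adjusted p = 7.60e-05) at day 14. Both sides are set against the same sham arrays, so these values are not independent of each other. Sham mice were another cohort, so cohort and treatment cannot be told apart, and left legs also differ from sham legs in side.

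The contralateral legs also differed from naive legs. Left control legs of cast mice, pooled over days, had 8 members higher and 13 lower (background: 32.6% of all genes, 19.9% higher and 12.7% lower), or 12 and 8 with quantile scaling and 9 and 9 with the mean over probe sets. Besides Eif4ebp2, the largest were Eif2ak3 with 0.58 (SE 0.11, adjusted p = 6.72e-06), Eif5a2 with -0.55 (SE 0.18, adjusted p = 0.0139) and Eif4e3 with -0.44 (SE 0.067, adjusted p = 8.52e-08). With the mean over probe sets Eif2ak3 was 0.28 (adjusted p = 0.0679) and Eif5a2 -0.41 (adjusted p = 0.0664), which are not calls. Left legs of the tenotomy cohort had 7 higher and 14 lower (25.2% of all genes, 12.6% higher and 12.6% lower), or 13 and 8 with the mean over probe sets and 8 and 12 with quantile scaling, so the balance of directions depends on how probe sets are read. Among them were Eif3k with 0.54 (SE 0.070, adjusted p = 9.79e-10) and Eif4g3 with 0.46 (SE 0.069, adjusted p = 9.60e-08). Naive arrays serve both comparisons. A leg difference of an Eif gene therefore compares 2 legs that each can read away from the naive arrays. These values set left legs against naive right legs of another cohort, so cohort, side and treatment cannot be told apart. The mean log2 ratio of 3' to 5' actin probe sets was -1.19 in naive legs. It was -0.73, -0.49 and -0.33 in control legs of cast mice at days 2, 7 and 14. In left legs of the tenotomy cohort it was -0.83, -0.38 and -0.58. The part of RNA quality was not tested.

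Several members are read by more than 1 probe set, which gives a check within the array. Of 35 members with several tested probe sets, 2 had all of them called one way at day 2 of casting, 19 had some called, and 1 had calls both ways. In the tenotomy cohort at day 2 these counts were 6, 10 and 3. The 3 probe sets of Eif4ebp1 gave 0.83, 0.79 and 0.88 at day 2 of casting, those of Eif4a1 gave 1.11, 1.05 and 0.99 in the tenotomy cohort at day 2, and the 3 of Eif5b gave 0.60, 0.59 and 0.63 at day 14 of casting. The 2 of Eif1a gave 1.07 and 0.95 in the tenotomy cohort at day 2. All of these were called. Probe sets disagreed in sign for Eif2ak3, Eif1ax and Eif4e2, the last with 0.42 against -0.37 and -0.40 in the tenotomy cohort at day 2. An Eif4g2 probe set other than the brightest was -0.69, -0.54 and -0.52 in that cohort on the 3 days. Probe sets of 1 gene can read different transcript ends.

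**Figure D5:**
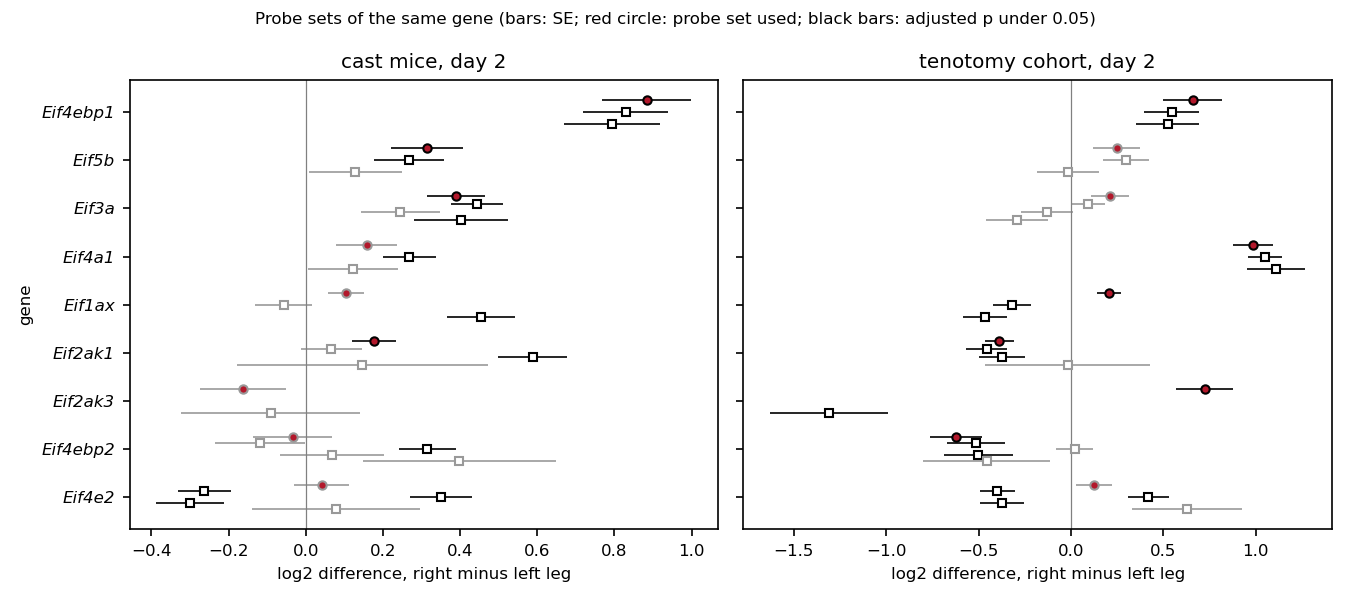
Right minus left log2 difference at day 2 of every tested probe set of 9 members (y axis: gene; bars: SE; red circle: the probe set used; black bars: adjusted p under 0.05), for cast mice and the tenotomy cohort. The Eif4ebp1 probe sets lie together at 0.79 to 0.88 in cast mice and those of Eif4a1 at 0.99 to 1.11 in the tenotomy cohort, whereas the Eif2ak3 probe sets lie on both sides of 0.

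Genes that work with the members were counted from 6 lists. The share of all genes called, against which each count is read, was 24.3% (11% higher, 13.3% lower), 8.77% (4.22%, 4.55%) and 13.2% (7.17%, 6.04%) at days 2, 7 and 14 of casting. It was 36.7% (20.8%, 15.9%), 32.9% (18.3%, 14.6%) and 23.2% (13.5%, 9.71%) in the tenotomy cohort. Of 17 partners of cap-dependent initiation, 8 were higher and 2 lower at day 2 of casting, and 3 and 4 in the tenotomy cohort at day 2. At day 7 they were 1 and 1 with casting and 3 and 3 in the tenotomy cohort, and at day 14 they were 2 and 1, and 2 and 5. The casting counts of days 7 and 14, out of 17, lie near the 8.77% and 13.2% of all genes. Pdcd4, which inhibits eIF4A, was higher in all 6 leg differences, with 0.45 (adjusted p = 1.49e-04) at day 2 of casting and 0.55 (adjusted p = 4.60e-04) in the tenotomy cohort at day 2. Mknk2, a kinase of eIF4E, was 0.23 (adjusted p = 0.042) and 0.15 (adjusted p = 0.388). Pabpc4, a poly(A)-binding protein, was lower, with -0.46 (adjusted p = 8.38e-08) and -0.64 (adjusted p = 1.77e-08). Of 23 genes of insulin and mTORC1 signalling, which sets 4E-BP phosphorylation, 3 were higher and 4 lower at day 2 of casting and 2 and 8 in the tenotomy cohort. The counts at day 7 were 2 and 1 with casting and 3 and 5 in the tenotomy cohort, and those at day 14 were 2 and 3, and 1 and 3. Irs1, the insulin receptor substrate, was -0.77 (adjusted p = 2.99e-06) and -0.93 (adjusted p = 2.18e-05). Mtor itself was called in none of the 6, with values from -0.16 to 0.17.

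The integrated stress response, the programme set off by phosphorylated eIF2, had 9 of 17 genes higher and 0 lower in the tenotomy cohort at day 2, beside 20.8% of all genes higher and 15.9% lower. With casting it had 2 higher and 3 lower, beside 11% and 13.3%. At day 7 it had 5 higher and 3 lower in the tenotomy cohort (all genes 18.3% and 14.6%) and 0 and 1 with casting (4.22% and 4.55%). At day 14 it had 5 and 2 in the tenotomy cohort (13.5% and 9.71%), and 1 and 1 with casting (7.17% and 6.04%). Psat1, a serine synthesis enzyme, was 2.10 (adjusted p = 3.88e-15) in the tenotomy cohort at day 2. Atf3, a stress transcription factor, was -1.42 (adjusted p = 5.85e-04) in cast legs and 1.51 (adjusted p = 0.00588) in the tenotomy cohort at day 2. Atf4, whose translation rises when eIF2 is phosphorylated, was 0.08 (adjusted p = 0.417) and -0.16 (adjusted p = 0.157) in RNA. Ddit3 (CHOP), a target of ATF4, was -0.40 (adjusted p = 0.00495) and 0.45 (adjusted p = 0.0153). eIF2 phosphorylation itself was not measured.

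Ribosome biogenesis genes (20 tested) were 5 higher and 1 lower at day 2 in each cohort, with 2 and 0 at day 7 and 5 and 1 at day 14 of casting, and 4 and 5, then 1 and 3, in the tenotomy cohort. Myc, which drives many of them, was 2.18 (adjusted p = 8.24e-11) in the tenotomy cohort at day 2. Of 33 cytosolic ribosomal protein genes tested, 7 were higher and 0 lower in that cohort at day 2 and 2 and 2 with casting. The later counts were 8 and 0, then 0 and 0, in that cohort and 2 and 0, then 4 and 0, with casting. Of 15 elongation and termination factors, 2 were higher and 7 lower in that cohort at day 2 and 1 and 2 with casting. At day 7 they were 2 and 3 in that cohort and 2 and 0 with casting, and at day 14 they were 1 and 2 in each. Eef1a1, the general elongation factor that is low in adult muscle, was 1.11 (adjusted p = 8.48e-14) at day 2 in the tenotomy cohort. These counts are read against the same shares of all genes, 24.3%, 8.77% and 13.2% called on the 3 days of casting and 36.7%, 32.9% and 23.2% in the tenotomy cohort. Macrophage and proliferation markers were higher in the same right legs: 16 of 16 macrophage markers and 9 of 9 proliferation markers tested were called higher in the tenotomy cohort at day 2, and 0 of 16 and 0 of 9 at day 2 of casting. Their part in the changes of these lists was not tested.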

How the data were processed

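Total RNA of whole gastrocnemius was extracted with Trizol and RNeasy, and 6 ug per sample was made into biotin-labelled cRNA for Affymetrix arrays, per the labels' protocols. The deposited values are linear signal intensities per probe set, summarised by the authors with MAS5 in GCOS per the submitters' processing notes, with versions not given there. The scaling target is not given in the sources used here. All 45101 probe sets had a value on all 111 arrays, and no 2 arrays were identical. Of the probe sets, 34958 list 1 gene, 932 several and 9211 none in the platform annotation, and 34754 were found in RefSeq's gene table.

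Each gene was read from its brightest probe set. Genes above an array's 40th percentile (9.65 to 17.84) on at least 5 arrays were tested. Intensities were taken as log2(signal + 3.982), 3.982 being their 20th percentile, and fitted with limma 3.58.1 in R 4.3.3: 16 group means, a trend in the variance, and animals as random blocks (correlation within an animal 0.0964). Adjustment was Benjamini-Hochberg over 16029 genes. The fit was also run on simulated data drawn with normal errors and an animal effect, as the fit itself assumes. That run checks the code and not the calls in these data. Fold changes understate the change of dim genes. Arrays give no depth, so precision rests on the number of animals.

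Title replicate numbers do not pair the legs (3 of 42 shared numbers come from the same animal). Animal numbers do, giving 41 pairs whose residuals correlated at 0.0634 on average, against -0.0099 for other pairs. Sham samples at day 2 were grouped by title, since their treatment label is not filled. Members and gene lists were chosen with earlier results of these data known. Signals by group are given for up to 6 called members with the largest size in each leg difference, up to 4 in other comparisons, and members central to each role. Others are counted by role. From a pathway list up to 3 called genes are named, besides Atf4, Ddit3, Mtor, Mknk2 and Pdcd4. Alternatives were other pseudocounts and filters, quantile scaling, the mean over probe sets, array weights, only the groups compared, no block or a fixed block, and leaving out arrays. Promoter sequences came from RefSeq (GRCm38.p6). Plots used matplotlib 3.10.9.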

Additional observations from a re-analysis of the deposited data

Results flagged for a closer look

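Several leg differences of initiation factor genes changed between days. With casting, day 14 minus day 2 was -0.62 for Eif4ebp1, 0.59 for Eif2ak2, -0.52 for Eif2b4 and 0.48 for Eif2ak3, and day 7 minus day 2 was 0.34 for Eif3e. In the tenotomy cohort day 14 minus day 2 was -0.92 for Eif4a1, -0.88 for Eif4ebp1, -0.56 for Eif1a and -0.50 for Eif6, and day 7 minus day 2 was -0.64 for Eif4a1, -0.40 for Eif6 and -0.35 for Eif3b. Each passed limma's test of the change itself in the main fit. The calls of Eif4ebp1, Eif2b4 and Eif4a1, and of Eif6 at day 14, held under every alternative run. Those of Eif2ak2, Eif2ak3 and Eif3e with casting were each lost under some settings, Eif2ak3 falling to 0.049 at the lowest (adjusted p up to 0.918). In the tenotomy cohort so were those of Eif1a and Eif3b, and of Eif6 at day 7 (adjusted p up to 0.447).

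The cohorts differed in the leg difference by a direct test. At day 2 the tenotomy cohort minus casting was 0.94 for Eif1a, 0.89 for Eif2ak3, 0.83 for Eif4a1 and -0.71 for Eif4e3. At day 7 it was 0.73 for Eif2ak4 (adjusted p = 0.0458), 0.67 for Eif1a, 0.65 for Eif2ak3 and -0.55 for Eif2s2. At day 14 it was -0.61 for Eif2s2, -0.59 for Eif5, -0.49 for Eif4e3 and -0.33 for Eif2ak1. These signs are for right minus left legs, and they rest on the side taken in the tenotomy cohort. The day 7 call of Eif2ak4 was lost with a pseudocount of 1, no filter, quantile scaling, the mean over probe sets or no block (adjusted p up to 0.399). With the mean over probe sets the Eif2ak3 values were -0.17 (adjusted p = 0.63) at day 2 and 0.096 (adjusted p = 0.829) at day 7. That setting gave -0.083 (adjusted p = 0.837) for Eif2ak1 and -0.30 (adjusted p = 0.073) for Eif4e3 at day 14. None of these is a call. The Eif2ak1 call at day 14 was also lost with a fixed block for animals.

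Single arrays stood away from the rest of their group in 18 of 252 combinations of 21 members and a group, where chance alone gives about 1 in 20. Among day 2 cast legs, replicate 10 had 1066 for Eif3a (others 1477 to 1802), 1142 for Eif4e (637.4 to 856.4) and 313.2 for Eif4ebp2 (432.1 to 620.9), and replicate 6 had 1941 for Eif4a1 (1086 to 1427). Among day 2 control legs, replicate 2 had 538.0 for Eif2b5 (434.3 to 476.8), 535.6 for Eif4e3 (411.9 to 463.5) and 242.6 for Eif5b (328.8 to 409.8). In the same group replicate 6 had 1347 for Eif4ebp1 (681.5 to 900) and 1702 for Eif5 (1092 to 1345), and replicate 9 had 249.1 for Eif2ak1 (279 to 301.6). Among day 7 cast legs, replicate 1 had 171.0 for Eif2s3y (307 to 476.9) and 356.8 for Eif5b (508.2 to 594.6), and replicate 3 had 21.44 for Eif2ak4 (13.2 to 15.77). Control legs had 494.4 for Eif2b1 at day 7 in replicate 5 (317.6 to 372.5) and 780.3 for Eif4ebp1 at day 14 in replicate 2 (504.3 to 596.9). In the tenotomy cohort, right legs at day 14 had 413.8 for Eif2b5 in replicate 5 (363.8 to 374.3) and 1111 for Eif4a1 in replicate 3 (815 to 887.5), and left legs at day 7 had 265.9 for Eif2ak1 in replicate 6 (286 to 299.7).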

How the results depend on the processing

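Among the members called in each leg difference, 15 of 20 kept direction and call under every alternative run at day 2 of casting, 7 of 13 at day 7 and 5 of 11 at day 14, and in the tenotomy cohort 9 of 20, 4 of 13 and 4 of 12. For the cohort difference these were 13 of 21, 5 of 15 and 2 of 5. The number of alternatives differed, since arrays were left out 1 by 1 in some comparisons only. It was 14, 11 and 11 for casting, 21, 11 and 21 for the tenotomy cohort and 24, 11 and 21 for the cohort difference. These shares therefore cannot be set against each other. No member turned direction under another scaling, pseudocount or filter. With the mean over all probe sets of a gene, Eif1ax turned to -0.19 and -0.17 in the tenotomy cohort at days 2 and 7, Eif2ak3 to -0.29 and -0.0425 there, to -0.0784 in cast mice at day 14 and to -0.17 in the cohort difference at day 2. Under the same setting Eif2b5 turned to 0.0266 in cast mice at day 14 and 0.0047 in the tenotomy cohort at day 7, Eif2d to 0.0402 in cast mice at day 14, and Eif3l and Eif3m to 0.0912 and 0.0187 in the casting change from day 2 to day 14. Without the replicate block of animals the count at day 14 of casting was 7 in place of 11, and that of the casting change from day 2 to day 7 was 0 in place of 1. A fixed replicate block gave 3 in place of 5 for the cohort difference at day 14, and the block moved no other count by over 1.5 times. The labelled orientation gave 14 there. For the casting change to day 7, array weights gave 5, the mean over probe sets 3, the stricter filter 4, and 2 each with only the groups compared, a pseudocount of 16, quantile scaling or without the array that stood apart. Means over probe sets gave 6 at day 14 of casting, 8 in place of 5 for the tenotomy cohort change to day 14, and against sham 6 in place of 11 (day 2) and 14 in place of 23 (day 7) for left legs. Only the groups compared gave 0 in place of 2 for sham against naive at day 14, 4 and 12 in place of 11 and 19 for left legs against sham at days 2 and 14, and 1 in place of 3 for the tenotomy cohort change to day 7. The cause of these shifts was not tested.

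When 1 array was left out, counts ran from 19 to 23 at day 2 of casting, 12 to 17 for the casting change to day 14 and 0 to 4 for that to day 7. They ran from 17 to 21 and 7 to 13 in the tenotomy cohort at days 2 and 14, 1 to 4 and 3 to 5 for its changes to days 7 and 14, and 19 to 22 and 3 to 6 for the cohort difference at days 2 and 14. Against sham they ran from 19 to 25 and 22 to 27 for right legs and 1 to 10 and 15 to 17 for left legs at days 2 and 14. They ran from 20 to 22 for left legs of the tenotomy cohort against naive, stayed at 21 for control legs of cast mice and at 0 for sham at day 2. The arrays that moved a count by over 1.5 times were sham day 2 replicates 2 and 3 (left legs against sham, 1 and 6), right legs at day 14 replicate 2 (tenotomy cohort change, 3) and replicate 3 (cohort difference 3, leg difference 7), right legs at day 2 replicate 1 (change to day 7, 1), and, chosen after their values were seen, cast day 2 replicate 10 and control day 2 replicate 6 (casting change to day 7, 4 and 0). Signal near background limits Eif2ak2, Eif2ak4 and Eif5a2, whose log2 values depend most on the pseudocount. With 3 sham arrays at day 2 small differences there would go unseen.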
